A study of Mus musculus with 40 samples.

Results

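The 70 genes described here encode membrane carriers for sugars, amino acids and zinc. They were taken by name from the gene count tables of mouse mammary gland cells: every gene whose symbol is Slc2a, Slc5a, Slc7a, Slc38a, Slc30a or Slc39a followed by a number was included, and no measured value was used. The set held 12 Slc2a, 10 Slc5a, 14 Slc7a, 11 Slc38a, 9 Slc30a and 14 Slc39a genes, out of 26132 gene IDs in the adult and pubertal tables together. Of the 70, 68 were in the adult table, 69 in the pubertal table and 67 in both. The symbols *Slc30a8*, *Slc5a12* and *Slc7a12* also follow the pattern but were in neither the adult nor the pubertal table.

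Slc2a proteins (GLUTs) let hexoses and related polyols run down their gradient, while Slc5a proteins couple glucose, myo-inositol, iodide, monocarboxylates or vitamins to sodium. Slc7a proteins are amino acid exchangers and cationic amino acid carriers, several of which reach the cell surface only when paired with a heavy chain such as *Slc3a2*, and Slc38a proteins take up small neutral amino acids. Slc30a proteins (ZnTs) move zinc out of the cytosol, into organelles or out of the cell, and Slc39a proteins (ZIPs) move it into the cytosol. The mammary gland draws on all of these in lactation: glucose for lactose, amino acids for milk protein, iodide through *Slc5a5*, and zinc, whose loss from milk in the lethal milk mouse is caused by a mutation in *Slc30a4*. The glands studied here came from virgin animals, before any lactation.

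PolyA RNA was sequenced from 4 cell types of the third and the fourth mammary glands of wildtype FVB/N female mice: luminal cells, basal cells, adipocytes and the non-adipose cells of the stroma, which are called fibroblasts below. The adult groups, at 14 to 16 weeks of age, were taken in proestrus, estrus, metestrus or diestrus, and the pubertal group was 34 to 36 days old. Each combination of cell type and stage had 2 libraries, 40 in all, of which 32 were adult and 8 pubertal. An adult library pooled 2 or 3 mice and a pubertal library pooled 4. Luminal, basal and stromal cells were sorted on EpCAM and CD49f after cells positive for CD45, CD31 or Ter119 had been set aside, whereas the adipocytes were the floating fat layer and were not sorted. Total counts per library lay between 8991222 and 22760563 in adults and between 11774264 and 19033586 in puberty. The 2 ages were sequenced in separate runs and deposited in separate tables, so age and run cannot be told apart.

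The keratins and luminal markers followed the labels of the sorted cells, while the fat fraction was less uniform. The summed level of 20 luminal markers was 26530 to 32450 CPM (read counts per library size, TMM-scaled over all 40 libraries) in adult luminal cells, against 2530 to 3195 CPM in adult basal cells. In adult fibroblasts that sum was 89.1 to 523.9 CPM. In the adipocyte fraction it was 1236 and 2416 CPM in the diestrus libraries and 1394 and 2055 CPM in the pubertal ones, against 275.3 to 597.3 CPM in the other 6 adult libraries. The sum of the epidermal markers, of which 16 of 17 were in the tables, was 4511 CPM in diestrus replicate 2 and 2273 CPM in pubertal replicate 2 of the adipocytes. It was 492.6 CPM in proestrus replicate 1 and at most 51.5 CPM in the other adipocyte libraries. The 16 adipocyte markers summed to 17750 CPM in diestrus replicate 2 and to 27280 and 18240 CPM in puberty, against 33550 to 75470 CPM in the other 7 adult adipocyte libraries. The 18 basal markers did not set the basal libraries apart from fibroblasts in puberty, where they summed to 19410 and 21740 CPM in basal cells and 19680 and 16440 CPM in fibroblasts, against 20280 to 31910 CPM and 6458 to 11990 CPM in adults. *Sparc*, a matrix protein gene of that list, had 15920 and 12570 CPM of the pubertal fibroblast sum. The basal keratin *Krt14* had 2763 and 3887 CPM in pubertal basal cells and 35.8 and 37.7 CPM in pubertal fibroblasts, and the basal transcription factor *Trp63* had at most 14.6 CPM in any fibroblast library. Leukocyte markers (16 genes) summed to 696 to 1222 CPM in adult luminal cells and 27.1 to 49.9 CPM in adult basal cells, although *Ptprc*, which encodes CD45, had at most 0.171 CPM in luminal libraries. Muscle markers (8 genes) summed to 48.7 to 467.2 CPM in adult adipocytes and to at most 29.4 CPM in the other adult types. Endothelial and pericyte markers (14 genes) summed to 2439 to 4529 CPM in adult fibroblasts and 1074 to 2890 CPM in adult adipocytes. Whether these sums reflect RNA of other cells, and their part in the results below, was not tested.

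The first question was in which cell type each transporter was most abundant in adults. A gene was called highest (or lowest) in a cell type when edgeR's quasi-likelihood test, with Benjamini-Hochberg adjustment over all 15077 genes tested, put it above (or below) each of the other 3 types at an adjusted p under 0.05. The fit held 56 of the 70 genes, and 39 of these were highest in a single type. Luminal cells were highest for 12 members, where 15% of all tested genes were highest there. Basal cells were highest for 10 (17.7% of all genes), adipocytes for 4 (20.5%) and fibroblasts for 13 (15.7%). Adipocytes were lowest for 17 members (17.4% of all genes), basal cells for 10 (13.7%), luminal cells for 8 (15.8%) and fibroblasts for 2 (14.4%). No test of these shares against each other was made. A lower CPM in bulk RNA can come from fewer cells that express a gene or from less RNA per cell, and these cannot be told apart. *Slc30a1*, *Slc30a2*, *Slc30a3* and *Slc5a3* were tested but neither highest nor lowest anywhere. *Slc2a5*, *Slc7a10*, *Slc38a5* and *Slc38a11* exceeded 1 CPM, the filter for testing, only in the type in which they were highest. Their place in the fit came from that type alone, and their folds rest on few reads elsewhere.

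**Figure D1:**
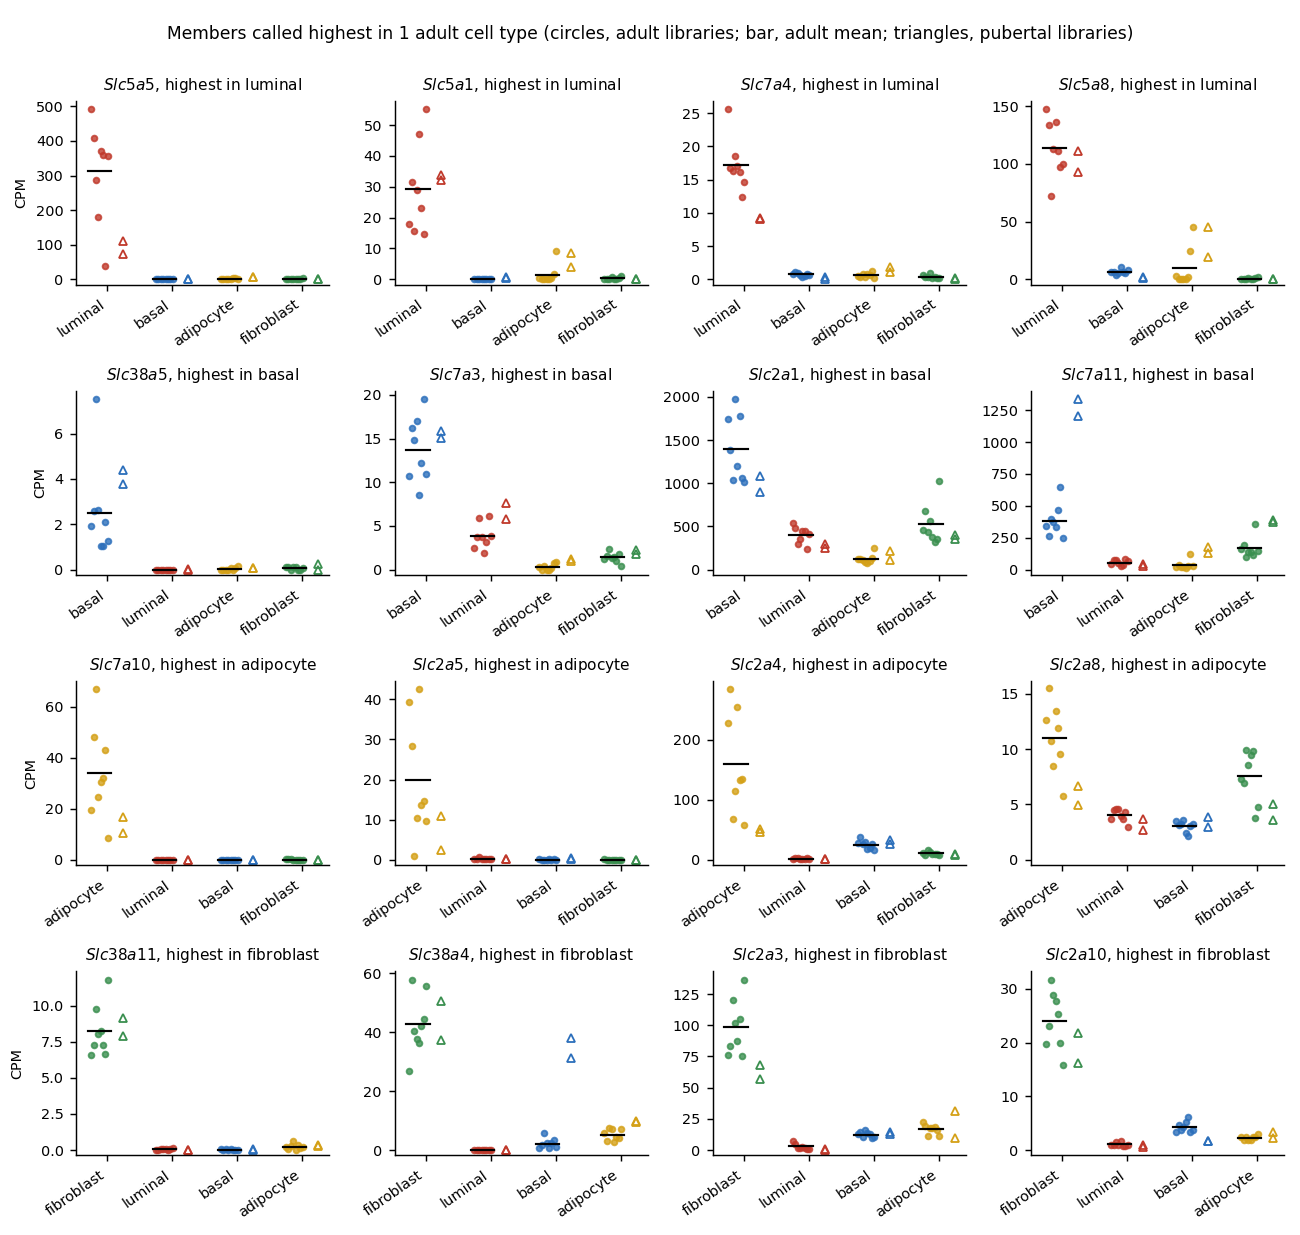
CPM (vertical axes, linear, a scale for each panel) of the 4 members with the largest fold change over the next type among those highest in luminal cells (top row), basal cells, adipocytes and fibroblasts (bottom row). Circles are the 8 adult libraries of a cell type, the bar is their mean and triangles are the 2 pubertal libraries, with the type in which the gene was highest at the left. *Slc7a10* and *Slc2a5* outside adipocytes and *Slc38a11* outside fibroblasts lie close to 0, while the adult libraries of *Slc2a8*, *Slc2a1* and *Slc7a11* overlap with those of fibroblasts.

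Among the facilitative sugar carriers, *Slc2a1* (GLUT1, the widespread carrier for basal glucose uptake; ENSMUSG00000028645, GRCm38 chromosome 4, 119108711 to 119137983) was the most abundant per length in every type but adipocytes. In RPKM (CPM per kilobase of exon) it averaged 398.8 ± 109.6 in basal cells, 150.3 ± 66.1 in fibroblasts, 114.5 ± 28.3 in luminal cells and 35.7 ± 15.1 in adipocytes (SD, n = 8 each). It made up 96.9% of the summed Slc2a RPKM in basal cells and 96.2% in luminal cells. In CPM the basal libraries ran from 1014 through a median of 1290 to 1977. The fibroblast libraries ran from 324.9 through 446.1 to 1025, so that the highest fibroblast library, diestrus replicate 2, lay just above the lowest basal one. Basal cells exceeded fibroblasts by 1.43 on the log2 scale (SE 0.20, edgeR adjusted p = 1.67e-06). Adipocytes were lowest, 1.72 below luminal cells (SE 0.20, edgeR adjusted p = 1.13e-07), with libraries of 80.8 to 245.6 CPM against 233.7 to 538.1 CPM in luminal cells.

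*Slc2a4* (GLUT4, the insulin-responsive carrier of fat and muscle; ENSMUSG00000018566, chromosome 11, 69942539 to 69948188) led in adipocytes, at 45.8 RPKM and 47.9% of their summed Slc2a RPKM. Its adipocyte libraries had 57.3 to 284.2 CPM with a median of 133.7, against 16.0 to 37.5 CPM in basal cells, the next type. No library of another type reached the lowest adipocyte library, and the log2 fold change was 2.56 (SE 0.19, edgeR adjusted p = 1.01e-10). Luminal cells were lowest, at 1.02 to 2.77 CPM. *Slc2a5* (GLUT5, the fructose carrier; ENSMUSG00000028976, chromosome 4, 150119283 to 150144169) was all but confined to the fat fraction among these libraries, though its level there was uneven. The adipocyte libraries had 39.3 and 28.3 CPM in proestrus, 0.920 and 10.5 CPM in estrus, 42.4 and 13.7 CPM in metestrus and 14.6 and 9.72 CPM in diestrus, against at most 0.683 CPM in any other adult library. Its log2 fold change over luminal cells was 6.10 (SE 0.51, edgeR adjusted p = 4.34e-09). *Slc2a8* (GLUT8, a mostly intracellular carrier) was also highest in adipocytes, at 5.80 to 15.5 CPM with a median of 11.3, against 3.78 to 9.93 CPM in fibroblasts. These ranges overlap, and the log2 fold change was only 0.57 (SE 0.12, edgeR adjusted p = 1.55e-04).

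Fibroblasts were highest for *Slc2a3* and *Slc2a10*. *Slc2a3* (GLUT3, a high-affinity carrier best known from neurons; ENSMUSG00000003153, chromosome 6, 122727809 to 122801640) had 75.0 to 136.5 CPM with a median of 94.9 in fibroblasts, against 10.9 to 22.1 CPM in adipocytes. The libraries were far apart, with a log2 fold change of 2.58 (SE 0.15, edgeR adjusted p = 2.17e-12). Luminal cells were lowest at 0.981 to 7.59 CPM. *Slc2a10* (GLUT10, whose loss causes arterial tortuosity in humans) had 15.8 to 31.7 CPM with a median of 24.2 in fibroblasts, against 3.27 to 6.23 CPM in basal cells, a log2 fold change of 2.48 (SE 0.14, edgeR adjusted p = 1.81e-12).

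The other Slc2a members were low throughout. Basal cells were lowest for *Slc2a6* (GLUT6), *Slc2a8*, *Slc2a9* (GLUT9, a urate carrier) and *Slc2a12* (GLUT12), with basal means of at most 3.04 CPM. *Slc2a13* (HMIT, a proton-coupled myo-inositol carrier) averaged 10.4 ± 3.3 CPM in basal cells, 9.42 ± 2.70 in fibroblasts and 6.51 ± 1.33 in adipocytes (SD, n = 8 each). In luminal cells it was read in 1 of 8 libraries, at 0.0359 CPM, too few reads for a fold. *Slc2a2* (GLUT2, of liver and pancreatic beta cells) and *Slc2a7* did not exceed 0.222 CPM in any adult library and were not tested.

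Luminal cells stood out in the sodium-coupled Slc5a family, being highest for 5 of the 6 members tested, beside 15% of all genes. The largest of these differences was *Slc5a5* (the sodium-iodide symporter, which brings iodide into milk and thyroid; ENSMUSG00000000792, chromosome 8, 70882889 to 70892757). Luminal libraries had 492.0 and 408.9 CPM in proestrus, 285.7 and 180.5 CPM in estrus, 370.6 and 360.4 CPM in metestrus and 38.5 and 357.3 CPM in diestrus. Every other adult library had at most 4.43 CPM. Diestrus replicate 1 was the lowest luminal library by far and still above all other types. The log2 fold change over adipocytes, the next type, was 7.13 (SE 0.44, edgeR adjusted p = 5.07e-12). At 106.5 ± 48.7 RPKM (SD, n = 8) *Slc5a5* was the second most abundant transporter per length in luminal cells after *Slc2a1*, and it gave 66.0% of their summed Slc5a RPKM.

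*Slc5a1* (SGLT1, the sodium-glucose carrier of the gut; ENSMUSG00000011034, chromosome 5, 33104219 to 33162870) had 14.9 to 55.2 CPM with a median of 26 in luminal cells, against 0.0839 to 9.09 CPM in adipocytes. The 2 adipocyte libraries above 1 CPM were those of diestrus, and the log2 fold change was 5.70 (SE 0.44, edgeR adjusted p = 1.81e-10). *Slc5a8* (SMCT1, a carrier of lactate, pyruvate and short-chain fatty acids) had 72.4 to 147.4 CPM with a median of 112.2 in luminal cells, against 4.00 to 10.7 CPM in basal cells, a log2 fold change of 4.12 (SE 0.36, edgeR adjusted p = 1.52e-09). Its adipocyte libraries had 0 to 45.7 CPM, with the 2 diestrus libraries highest, and it was called lowest in fibroblasts, at 0 to 1.71 CPM. *Slc5a9* (SGLT4, a mannose and glucose carrier) was highest in luminal cells by 4.07 on the log2 scale, and *Slc5a6* (SMVT, the carrier of biotin and pantothenate) by 0.96. For both the luminal and adipocyte libraries overlapped.

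*Slc5a3* (SMIT1, the myo-inositol carrier of the osmotic response) was the only tested Slc5a member that was neither highest nor lowest in a cell type. It averaged 127.3 ± 44.1 CPM in fibroblasts, 106.7 ± 25.8 CPM in luminal cells, 104.7 ± 41.4 CPM in adipocytes and 80.5 ± 20.4 CPM in basal cells (SD, n = 8 each). It gave most of the Slc5a RPKM in basal cells (53.0%) and in fibroblasts (69.4%). *Slc5a2* (SGLT2, of the kidney), *Slc5a7* (the choline carrier of cholinergic neurons), *Slc5a10* and *Slc5a11* were too low to be tested, with no adult library over 1.35 CPM. For *Slc5a2* and *Slc5a10*, 20.6% and 16.6% of the exon bases also lie in an exon of a gene on the opposite strand, and whether strand was used in counting is not stated, so even these reads are uncertain.

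The amino acid exchangers of the Slc7a family were split between the epithelial layers and the stroma, with 6 of the 10 tested members lowest in adipocytes, beside 17.4% of all genes. *Slc7a5* (LAT1, the leucine carrier that pairs with *Slc3a2*) reached 151.8 ± 29.1 RPKM in basal cells and 111.7 ± 23.1 RPKM in fibroblasts (SD, n = 8 each) and was second only to *Slc2a1* in both. Its basal libraries had 407.0 to 703.8 CPM with a median of 584.8, against 334.0 to 588.0 CPM in fibroblasts. The ranges overlapped and the log2 fold change was 0.44 (SE 0.11, edgeR adjusted p = 9.46e-04). Adipocytes were lowest, at 29.7 to 112.0 CPM, 2.06 below luminal cells (SE 0.11, edgeR adjusted p = 7.32e-13).

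*Slc7a11* (xCT, the cystine-glutamate exchanger that feeds glutathione synthesis; ENSMUSG00000027737, chromosome 3, 49892526 to 50443614) was highest in basal cells, at 250.7 to 645.2 CPM with a median of 358.0, against 96.9 to 360.4 CPM in fibroblasts. Its log2 fold change was 1.24 (SE 0.26, edgeR adjusted p = 2.57e-04), and it was lowest in adipocytes. *Slc7a11* and *Slc7a7* are shown with their promoters because they were the only 2 of the 56 members with a RefSeq promoter window to hold TGATGNAA on either strand, the core of the amino acid response element that *Atf4* and Cebp proteins bind. Of all 27025 genes with a window, 4.51% held it. The windows run from 250 bases before the start site to 50 after it on GRCm38.p6, both genes lie on the minus strand (chr3:50443564-50443863 and chr14:54417895-54418194), and matches are in capitals. The matches lie 66 to 59 and 47 to 40 bases before the start in *Slc7a11*, and 141 to 134 bases before and across the start in *Slc7a7*, of which 1 of 5 windows is printed. A match in letters is not a measured binding site.
Slc7a11: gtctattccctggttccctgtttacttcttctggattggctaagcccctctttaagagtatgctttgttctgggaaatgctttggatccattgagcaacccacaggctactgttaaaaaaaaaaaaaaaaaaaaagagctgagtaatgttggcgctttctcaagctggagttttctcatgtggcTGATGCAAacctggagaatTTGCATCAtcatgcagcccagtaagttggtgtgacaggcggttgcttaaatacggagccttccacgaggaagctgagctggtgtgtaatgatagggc
Slc7a7: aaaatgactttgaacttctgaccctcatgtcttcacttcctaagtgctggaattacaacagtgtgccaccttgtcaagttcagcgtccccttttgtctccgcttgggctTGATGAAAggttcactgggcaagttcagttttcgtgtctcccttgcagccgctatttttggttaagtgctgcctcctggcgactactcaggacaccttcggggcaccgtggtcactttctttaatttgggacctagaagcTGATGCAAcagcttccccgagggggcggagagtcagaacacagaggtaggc

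*Slc7a3* (CAT3, a cationic amino acid carrier) was highest in basal cells at 8.56 to 19.5 CPM with a median of 13.5, against 1.95 to 6.18 CPM in luminal cells. The ranges were apart, with a log2 fold change of 1.86 (SE 0.29, edgeR adjusted p = 7.09e-06). *Slc7a6* (y+LAT2, which exchanges arginine for neutral amino acids) was highest in basal cells too, by 0.29 over fibroblasts, and its relative *Slc7a7* (y+LAT1) was lowest in adipocytes. The cationic carriers otherwise divided by layer. *Slc7a2* (CAT2) had 367.5 to 940.5 CPM with a median of 418.4 in luminal cells, against 81.1 to 194.6 CPM in basal cells, a log2 fold change of 1.81 (SE 0.31, edgeR adjusted p = 2.51e-05). *Slc7a1* (CAT1) was highest in fibroblasts at 419.9 to 702.9 CPM, with an overlap with basal cells at 276.1 to 573.9 CPM and a log2 fold change of 0.40 (SE 0.14, edgeR adjusted p = 0.0127). *Slc7a4* (CAT4, which has the fold of a cationic carrier) had 12.4 to 25.6 CPM with a median of 16.5 in luminal cells, against 0.396 to 1.12 CPM in basal cells. The log2 fold change was 4.54 (SE 0.24, edgeR adjusted p = 6.56e-13), and 13.3% of its exon bases are shared with *P2rx6* on the opposite strand.

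The largest fitted fold over the next cell type was that of *Slc7a10* (Asc-1, a carrier of small neutral amino acids known as a surface protein of white adipocytes; ENSMUSG00000030495, chromosome 7, 35186385 to 35201114). Its adipocyte libraries had 19.4 and 48.2 CPM in proestrus, 66.7 and 24.6 CPM in estrus, 30.6 and 32.1 CPM in metestrus and 43.0 and 8.41 CPM in diestrus. In the other types no adult library exceeded 0.320 CPM. Its log2 fold change over fibroblasts was 9.40 (SE 0.64, edgeR adjusted p = 8.36e-09), although 17.9% of its exon bases overlap *Lrp3* on the opposite strand. The adult fibroblast libraries held 0 to 4 reads of it each, so the size of this fold is uncertain. *Slc7a8* (LAT2) was highest in fibroblasts by 1.29 over basal cells (SE 0.17, edgeR adjusted p = 9.17e-07) and lowest in luminal cells. *Slc7a13* and *Slc7a14* stayed at or below 0.491 CPM in adults and were not tested. *Slc7a9* and *Slc7a15* were in the pubertal table only, at 0 and at most 0.0593 CPM.

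In the Slc38a family, *Slc38a2* (SNAT2, the amino-acid-regulated carrier of small neutral amino acids) was the most abundant member per length in every cell type. It averaged 134.1 ± 19.9 RPKM in basal cells, 104.7 ± 18.7 in fibroblasts, 58.6 ± 8.2 in luminal cells and 54.6 ± 11.7 in adipocytes (SD, n = 8 each). It was the most abundant of all 70 genes in adipocytes, where *Slc2a4* followed. The basal libraries had 855.8 to 1473 CPM and the fibroblast libraries 765.1 to 1231 CPM, an overlap, with a log2 fold change of 0.36 (SE 0.10, edgeR adjusted p = 0.00284). *Slc38a1* (SNAT1) was a luminal gene by comparison, with 65.0 to 124.3 CPM and a median of 85.0 in luminal cells, against 19 to 34.5 CPM in basal cells. The log2 fold change was 1.76 (SE 0.17, edgeR adjusted p = 1.1e-08).

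Fibroblasts were highest for 5 of the 10 tested Slc38a members, their own largest share in any of the families, beside 15.7% of all genes. *Slc38a11* (a member whose substrate is little studied; ENSMUSG00000061171, chromosome 2, 65316430 to 65364034) had 6.59 to 11.8 CPM with a median of 7.70 in fibroblasts, against at most 0.596 CPM in every other adult library. Its log2 fold change over adipocytes was 5.31 (SE 0.39, edgeR adjusted p = 4.64e-10). *Slc38a4* (SNAT4, a carrier of liver and placenta; ENSMUSG00000022464, chromosome 15, 96994820 to 97055956) had 26.7 to 57.8 CPM with a median of 41.3 in fibroblasts, against 2.77 to 7.54 CPM in adipocytes. The log2 fold change was 3.07 (SE 0.31, edgeR adjusted p = 5.88e-08). In luminal cells *Slc38a4* reached at most 0.0918 CPM, too few reads for a fold. *Slc38a3* (SNAT3, a glutamine carrier), *Slc38a7* (SNAT7, which exports glutamine from lysosomes) and *Slc38a10* were also highest in fibroblasts, by 1.34, 0.81 and 0.39 on the log2 scale.

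*Slc38a5* (SNAT5, a glutamine carrier; ENSMUSG00000031170, chromosome X, 8271133 to 8280179) was low but almost restricted to basal cells. Basal libraries had 1.91 and 2.57 CPM in proestrus, 7.52 and 2.64 CPM in estrus, 1.03 and 1.05 CPM in metestrus and 2.11 and 1.27 CPM in diestrus, against at most 0.171 CPM in any other adult library. Its log2 fold change over fibroblasts was 4.91 (SE 0.49, edgeR adjusted p = 2.77e-07). Basal cells were lowest for *Slc38a6*, *Slc38a9* (a lysosomal arginine sensor for mTORC1) and *Slc38a10*. *Slc38a8* reached at most 0.0622 CPM and was not tested.

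Among the zinc exporters, adipocytes were lowest for 4 of the 8 members tested, beside 17.4% of all genes. *Slc30a4* (ZnT4, the gene of the lethal milk mouse; ENSMUSG00000005802, chromosome 2, 122681233 to 122702663) gave the largest part of the summed Slc30a RPKM in each type, from 30.5% in adipocytes to 53.7% in luminal cells. It had 160.5 to 209.2 CPM with a median of 177.3 in luminal cells, against 76.1 to 147.6 CPM in basal cells. The ranges were apart and the log2 fold change was 0.65 (SE 0.12, edgeR adjusted p = 5.00e-05). *Slc30a5* and *Slc30a6*, which form 1 exporter of the secretory pathway, were both highest in basal cells and both lowest in adipocytes, but by small steps of 0.39 and 0.26 on the log2 scale over luminal cells. *Slc30a7* (ZnT7, of the Golgi) was lowest in adipocytes at 14.7 to 39 CPM, against 41.3 to 85.4 CPM in fibroblasts, and *Slc30a9* was lowest in fibroblasts.

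*Slc30a1* (ZnT1, the zinc exporter of the plasma membrane; ENSMUSG00000037434, chromosome 1, 191906767 to 191913247) averaged 37.0 ± 10.7 CPM in adipocytes, 33.0 ± 8.6 CPM in fibroblasts, 22.9 ± 4.6 CPM in basal cells and 20.3 ± 5.7 CPM in luminal cells (SD, n = 8 each). Its promoter is printed because zinc acts on this gene through the metal response element that *Mtf1* binds. The letters TGCACNC or TGCGCNC, on either strand, occurred in the windows of 28.2% of all genes and in 19 of the 56 members with a window. In *Slc30a1* (GRCm38.p6 chr1:191906531-191906830, plus strand, 300 bases) the matches in capitals lie 43 to 37 bases before and 31 to 37 bases after the start.
Slc30a1: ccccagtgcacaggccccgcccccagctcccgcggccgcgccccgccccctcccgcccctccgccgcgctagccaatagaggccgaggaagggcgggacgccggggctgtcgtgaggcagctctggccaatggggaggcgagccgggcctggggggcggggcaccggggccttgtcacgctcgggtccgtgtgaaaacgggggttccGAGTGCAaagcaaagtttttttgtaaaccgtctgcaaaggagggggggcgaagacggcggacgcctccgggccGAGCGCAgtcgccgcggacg
*Slc30a2* (ZnT2, which loads zinc into milk) had only 0.520 to 1.57 CPM in luminal cells and 0.449 to 1.19 CPM in basal cells. *Slc30a3* (ZnT3, of synaptic vesicles) reached at most 1.25 CPM. *Slc30a10*, a manganese exporter, was at or below 0.222 CPM and not tested.

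Among the zinc importers *Slc39a1* (ZIP1) was the most abundant per length in all 4 types, at 76.2 ± 8.9 RPKM in fibroblasts, 56.8 ± 4.4 in luminal cells, 48.9 ± 7.1 in basal cells and 39.6 ± 8.8 in adipocytes (SD, n = 8 each). Fibroblasts were highest by 0.42 on the log2 scale over luminal cells (SE 0.11, edgeR adjusted p = 0.00166), with 139.7 to 204.2 CPM against 120.6 to 146.6 CPM. *Slc39a10* (ZIP10; ENSMUSG00000025986, chromosome 1, 46807544 to 46892852) was highest in basal cells at 66.0 to 109.2 CPM with a median of 92.4, against 22.4 to 65.0 CPM in fibroblasts. The ranges just failed to meet, the log2 fold change was 0.96 (SE 0.13, edgeR adjusted p = 8.55e-07), and luminal cells were lowest at 16.3 to 19.8 CPM. Its partner *Slc39a6* (ZIP6) was nearly equal in fibroblasts, 155.2 ± 19.5 CPM, and basal cells, 149.4 ± 22.5 CPM (SD, n = 8 each), and lowest in adipocytes.

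*Slc39a14* (ZIP14, which also carries iron and manganese) and *Slc39a13* (ZIP13, needed by connective tissue cells) were highest in fibroblasts by 0.49 and 0.58 on the log2 scale. For *Slc39a14* the ranges of 204.0 to 311.6 CPM in fibroblasts and 99.6 to 264.6 CPM in luminal cells overlapped. *Slc39a7* (ZIP7, of the endoplasmic reticulum) was called highest in fibroblasts too, but 80.7% of its exon bases are shared on the same strand with *Gm20427*, so its counts are uncertain. Luminal cells were highest for *Slc39a11*, at 25.8 to 35.2 CPM against 6.33 to 37.8 CPM in adipocytes, where diestrus replicate 2 gave the highest value. They were also highest for *Slc39a2* and *Slc39a4* (ZIP4, the zinc importer of the gut), with edgeR adjusted p of 0.0258 and 0.0400 and overlapping ranges. *Slc39a2* reached 15.5 CPM in an adipocyte library although its adipocyte median was 0.134 CPM. *Slc39a8* (ZIP8) was lowest in luminal cells at 1.28 to 2.76 CPM, *Slc39a3* lowest in basal cells, and *Slc39a9* lowest in adipocytes. *Slc39a5* and *Slc39a12* did not exceed 0.641 CPM in adults and were not tested.

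The 16 calls in the plot of cell type levels, 4 for each type, each held when any 1 of the 32 adult libraries was left out. The count of members lowest in fibroblasts, 2, became 1 without adipocyte proestrus replicate 1, adipocyte estrus replicate 1 or both diestrus adipocyte libraries.

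Genes outside the 6 families that work beside them were counted from fixed lists. *Slc3a2* (4F2hc, the heavy chain of *Slc7a5*, *Slc7a6*, *Slc7a7*, *Slc7a8*, *Slc7a10* and *Slc7a11*) averaged 1334 ± 342 CPM in adult fibroblasts, 1112 ± 187 CPM in basal cells, 603 ± 89 CPM in luminal cells and 221.9 ± 76.5 CPM in adipocytes (SD, n = 8 each). The other heavy chain, *Slc3a1*, averaged at most 0.479 CPM. Of 16 heavy chains and other amino acid carriers tested, fibroblasts were highest for 4, adipocytes for 3, basal cells for 2 and luminal cells for 1, and luminal cells were lowest for 7, adipocytes for 5, basal cells for 2 and fibroblasts for 0, beside the shares of all genes given above. Those highest in adipocytes included the glutamate carrier *Slc1a3* and the glutamine carrier *Slc1a5*. *Slc1a5* averaged 480.8 ± 172.4 CPM in adipocytes and 13.1 ± 2.4 CPM in luminal cells. Of 27 genes of glucose handling and GLUT4 traffic, 12 were highest in adipocytes, where 20.5% of all genes were highest. They included *Trarg1*, a protein of GLUT4 vesicles, at 189.3 ± 78.2 CPM in adipocytes against 8.68 ± 2.1 CPM in fibroblasts, and *Mlxipl*, the glucose-sensing factor ChREBP, at 117.2 ± 74.1 CPM in adipocytes. Of 22 genes of the amino acid response around *Atf4* and of the related antioxidant response, 9 were highest in basal cells, beside 17.7% of all genes, and 15 lowest in adipocytes, beside 17.4%. Of 10 tested genes of zinc handling, adipocytes were highest for 3, luminal cells for 2, and basal cells and fibroblasts for 1 each, beside the shares of all genes given above.

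In puberty the same question was asked of 8 libraries, 2 for each cell type, with 54 members among 14263 genes tested. Luminal cells were highest for 8 members (6.46% of all genes), basal cells for 5 (4.01%), adipocytes for 3 (5.13%) and fibroblasts for 5 (6.16%). Of these, 7, 5, 3 and 5 were highest in the same type in adults. The share of all genes that were highest in the same type at both ages was not counted. Luminal cells were lowest for 10 members (9.75% of all genes), basal cells for 2 (4.89%), adipocytes for 1 (0.491%) and fibroblasts for 3 (4.8%). *Slc5a1*, *Slc5a5*, *Slc5a6*, *Slc5a8*, *Slc5a9*, *Slc7a2* and *Slc7a4* were highest in luminal cells at both ages, and *Slc2a1*, *Slc38a5*, *Slc39a10*, *Slc7a3* and *Slc7a11* in basal cells. *Slc2a4*, *Slc2a5* and *Slc7a10* were highest in adipocytes, and *Slc2a3*, *Slc2a10*, *Slc38a11*, *Slc39a13* and *Slc39a14* in fibroblasts, also at both ages. The exception was *Slc2a9*, the urate carrier, which was highest in luminal cells in puberty only, at 8.35 and 8.90 CPM against 2.96 and 3.45 CPM in adipocytes. In the test of whether the age difference in luminal cells differed from the mean of the other 3 types, *Slc2a9* was not called, at −0.80 on the log2 scale (SE 0.46, edgeR adjusted p = 0.233). As in adults, *Slc2a5*, *Slc7a10*, *Slc38a5* and *Slc38a11* exceeded 1 CPM in puberty only in the type in which they were highest. They passed the filter for testing through that type alone. The members lowest in luminal cells were *Slc2a3*, *Slc2a4*, *Slc2a13*, *Slc30a1*, *Slc38a4*, *Slc39a8*, *Slc39a10*, *Slc7a6*, *Slc7a8* and *Slc7a11*, of which 7 were lowest there in adults too. *Slc38a10* and *Slc7a7* were lowest in basal cells, *Slc30a7* in adipocytes, and *Slc30a2*, *Slc38a1* and *Slc5a8* in fibroblasts, with 1 of each group also lowest there in adults.

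Levels of the cell type genes differed in size between the tables. *Slc5a5* had 74.2 and 111.2 CPM in pubertal luminal libraries against 6.22 and 5.57 CPM in adipocytes, a log2 fold change of 3.93 (SE 0.32, edgeR adjusted p = 6.75e-05). *Slc7a11* had 1336 and 1205 CPM in pubertal basal cells against 387.7 and 373.6 CPM in fibroblasts, a log2 fold change of 1.66 (SE 0.34, edgeR adjusted p = 0.00534). *Slc7a10* had 16.9 and 10.5 CPM in pubertal adipocytes, and 0 and 0.0945 CPM in fibroblasts. The pubertal counts leaned on single libraries. Without either basal library 1 member was highest in basal cells, and without either fibroblast library 2 members were. Without adipocyte replicate 2 none was highest in adipocytes, and without adipocyte replicate 1 or basal replicate 1 there was 1. Without either fibroblast library 2 were highest in fibroblasts, and without either basal library 3. The count lowest in basal cells was 0 without either basal library and 1 without any 1 of the fibroblast and adipocyte libraries. That in adipocytes was 0 without any 1 of the basal and fibroblast libraries, luminal replicate 2 or adipocyte replicate 2, and 4 without adipocyte replicate 1. That in fibroblasts was 0 without basal replicate 1 or either fibroblast library, and 1 without replicate 2 of basal cells or adipocytes. In each of those fits the lone library of a type is assumed to vary like the other groups.

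The second question was how the transporters differed between adults and puberty within a cell type. The age comparison set the mean of the 4 adult stages over puberty, with 8 adult and 2 pubertal libraries in each type. Basal cells had the most calls, among members as among all genes: 15 members were higher in adults (24.5% of all genes tested in basal cells were) and 10 lower (24.8%), of 46 members tested. In luminal cells 7 members were higher in adults (4.2% of all genes) and 0 lower (6.55%), of 47 tested by edgeR, while 13 were called either way with no filter on low counts. In adipocytes 2 were higher (6.21%) and 11 lower (6.1%), of 51 tested. In fibroblasts 2 were higher (6.4%) and 4 lower (12.5%), of 46 tested. The members' median log2 fold change was 0.33 in luminal cells, where that of all genes tested was −0.02, and −0.03 in basal cells, where it was 0.02. Adipocytes had a median of −0.41 over the members and −0.06 over all genes, and fibroblasts had 0.01 and 0.03. Genes of the immediate early and dissociation stress list (20 genes) were higher in adults for 16 genes in basal cells, 10 in fibroblasts, 3 in luminal cells and 0 in adipocytes, and lower for 0 in all 4. Their part in the transporter differences was not tested.

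**Figure D2:**
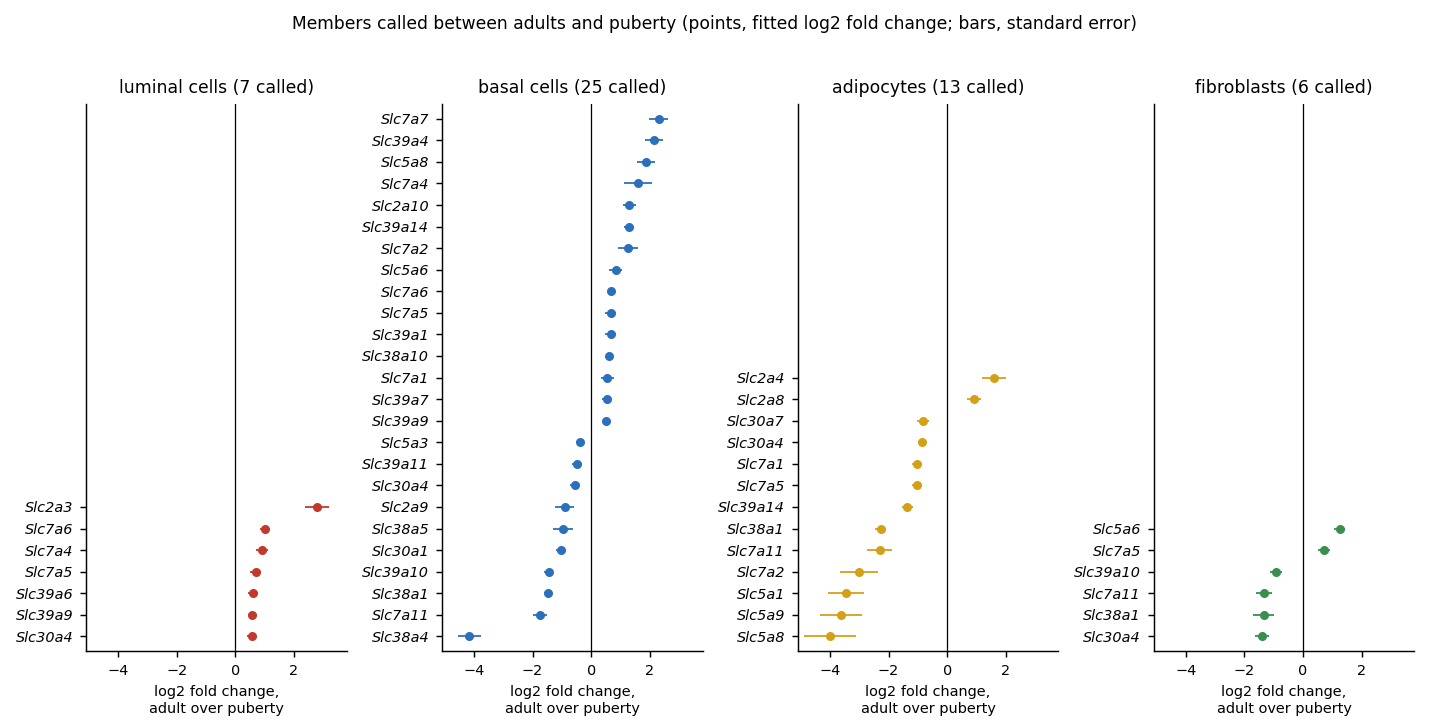
Fitted log2 fold changes of adults over puberty (horizontal axes) for the members called in each cell type, with bars of 1 standard error and a line at 0. Basal cells have 15 members above 0 and 10 below, luminal cells 7 above, adipocytes 2 above and 11 below, and fibroblasts 2 above and 4 below.

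In basal cells the 6 most significant members were 3 amino acid carriers lower in adults, 1 higher, and 2 zinc importers of opposite direction. *Slc38a4* had 0.653 and 1.54 CPM in proestrus, 5.73 and 2.24 CPM in estrus, 0.555 and 2.33 CPM in metestrus and 3.38 and 0.908 CPM in diestrus, against 37.9 and 31.3 CPM in puberty. All 8 adult libraries lay far below both pubertal ones, and the gene fell by 4.16 on the log2 scale (SE 0.39, edgeR adjusted p = 2.43e-05). In fibroblasts the same gene had 26.7 to 57.8 CPM in adults and 50.5 and 37.2 CPM in puberty. The sum of 14 fibroblast markers in basal cells was 82.8 to 191.9 CPM in adults and 473.3 and 457.2 CPM in puberty. Of the 14 genes, 1 was higher in every adult basal library than in both pubertal ones and 1 was lower in every one. *Fn1*, the fibronectin gene, had 6.56 to 45.8 CPM of that sum in adults and 299.0 and 293.3 CPM in puberty. The collagen gene *Col1a1* had 2.01 to 14.8 CPM in adults and 2.61 and 1.60 CPM in puberty. *Slc7a11* had 250.7 to 645.2 CPM with a median of 358.0 in adult basal cells, against 1336 and 1205 CPM in puberty, and fell by 1.75 (SE 0.25, edgeR adjusted p = 2.83e-04). *Slc38a1* had 19 to 34.5 CPM in adults against 76.7 and 63.5 CPM in puberty and fell by 1.49 (SE 0.14, edgeR adjusted p = 2.09e-05).

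*Slc7a7* (y+LAT1, whose promoter is printed above) was higher in adults. It had 7.20 to 17.3 CPM with a median of 12.7 in adult basal cells against 2.71 and 2.28 CPM in puberty, a log2 fold change of 2.30 (SE 0.33, edgeR adjusted p = 2.88e-04). Whether the letters printed above bear on the age differences of *Slc7a11* and *Slc7a7* was not tested. Of the zinc importers, *Slc39a10* had 66.0 to 109.2 CPM in adults against 275.6 and 217.7 CPM in puberty and fell by 1.45 (SE 0.16, edgeR adjusted p = 5.90e-05). *Slc39a14* had 133.5 to 219.9 CPM in adults against 75.7 and 66.9 CPM in puberty and was higher in adults by 1.29 (SE 0.17, edgeR adjusted p = 1.67e-04). The zinc exporter *Slc30a1* was also lower in adult basal cells, at 16.4 to 31.3 CPM against 52.5 and 39.8 CPM. The metallothioneins, zinc-binding proteins that *Mtf1* controls, were higher in adult basal cells. *Mt1* averaged 563.4 ± 188.1 CPM in adults (SD, n = 8) against 243.0 and 183.1 CPM in puberty, and *Mt2* 969.3 ± 334.8 CPM (SD, n = 8) against 267.4 and 218.7 CPM.

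The other basal members that rose in adults were *Slc39a4*, *Slc7a6*, *Slc5a8*, *Slc2a10*, *Slc38a10*, *Slc39a9*, *Slc5a6*, *Slc39a1*, *Slc7a2*, *Slc7a5*, *Slc39a7*, *Slc7a4* and *Slc7a1*, with log2 fold changes of 0.51 to 2.14. Those that fell were *Slc30a1*, *Slc30a4*, *Slc5a3*, *Slc2a9*, *Slc38a5* and *Slc39a11*, by 0.39 to 1.04. *Slc7a4* had 0.102 and 0.362 CPM in pubertal basal cells. It passed the filter for testing through the adult libraries, which favoured its call. *Slc3a2*, the heavy chain of *Slc7a5*, *Slc7a6* and *Slc7a7*, rose as well and averaged 1112 ± 187 CPM in adults (SD, n = 8) against 576.0 and 630.4 CPM in puberty. Of the 22 genes of the *Atf4* and antioxidant list, 13 were higher in adult basal cells and 5 lower. *Slc5a6*, *Slc5a8*, *Slc7a2*, *Slc7a4* and *Slc39a4*, which rose here, were highest in luminal cells among the adult types. The luminal marker sum in basal cells was 2530 to 3195 CPM in adults against 1569 and 2012 CPM in puberty. Of its 20 genes, 5 were higher in every adult basal library than in both pubertal ones and 7 were lower in every one. The keratin *Krt8* had 1148 to 1606 CPM in adults against 665.4 and 922.1 CPM, and the casein gene *Csn3* 4.10 to 13.7 CPM against 146.9 and 168.3 CPM. The epidermal sum was 164.4 to 445.1 CPM in adults against 539.0 and 847.8 CPM, and the leukocyte sum 27.1 to 49.9 CPM against 17 and 14.8 CPM. The part of other cells' RNA in these calls was not tested. Leaving out either pubertal basal library left 15 or 13 called members of 25.

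**Figure D3:**
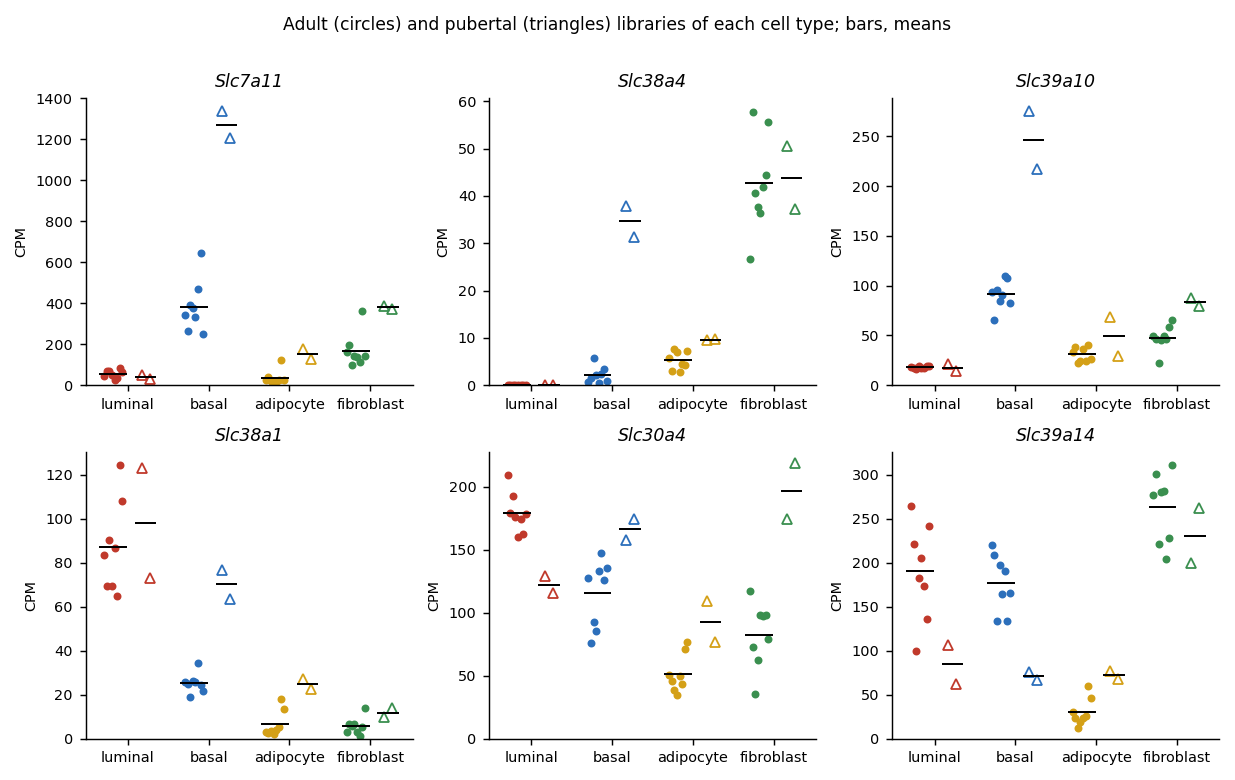
CPM (vertical axes, linear) of 6 members in each cell type, with circles for the 8 adult libraries at the left of each pair, triangles for the 2 pubertal libraries at the right and bars for the means. In basal cells *Slc7a11*, *Slc38a4*, *Slc39a10* and *Slc38a1* lie lower in all adult libraries than in both pubertal ones and *Slc39a14* lies higher, and *Slc30a4* lies higher in adults in luminal cells but lower in fibroblasts.

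In luminal cells the member with the largest difference was *Slc2a3*. It had 7.59 and 4.97 CPM in proestrus, 1.94 and 1.99 CPM in estrus, 2.73 and 1.69 CPM in metestrus and 0.981 and 1.1 CPM in diestrus, against 0.250 and 0.460 CPM in puberty. Every adult library was above both pubertal ones, with a log2 fold change of 2.78 (SE 0.41, edgeR adjusted p = 0.00321). Both pubertal libraries lay below 1 CPM. *Slc2a3* thus passed the filter for testing through the adult libraries, where it was high, which favoured its call. *Slc2a3* was highest in fibroblasts, and the fibroblast marker sum in luminal libraries was 121.4 to 535.1 CPM in adults against 40.5 and 27.5 CPM in puberty. Only 2 of its 14 genes were higher in every adult luminal library than in both pubertal ones, and 2 were lower in every one. Of that sum *Dcn*, the decorin gene, had 102.6 to 527.4 CPM in adults and 24.5 and 20.1 CPM in puberty, while *Col1a1* had at most 1.21 CPM in adults. The leukocyte sum was 696 to 1222 CPM in adults against 439.6 and 621.2 CPM, and the epidermal sum 181.7 to 259.0 CPM against 395.1 and 737.3 CPM. The part of these sums in this call was not tested. *Slc7a6* had 26.2 to 35.7 CPM in adults against 15.6 and 15.1 CPM, a log2 fold change of 1.01 (SE 0.17, edgeR adjusted p = 0.00572). *Slc7a4* had 12.4 to 25.6 CPM in adults against 9.18 and 9.05 CPM, a log2 fold change of 0.91 (SE 0.19, edgeR adjusted p = 0.0195). *Slc7a5*, *Slc30a4*, *Slc39a6* and *Slc39a9* were higher in adults by 0.69, 0.56, 0.61 and 0.59, with edgeR adjusted p of 0.0385, 0.0397, 0.0456 and 0.0499. Their calls were not firm: leaving out luminal pubertal replicate 2 left 2 called members of 7, while leaving out pubertal replicate 1 gave 18. Without luminal proestrus replicate 1 or 2, estrus replicate 2 or metestrus replicate 1 there were 3, and without estrus replicate 1 or diestrus replicate 2 there were 4. *Slc5a5* had 38.5 to 492.0 CPM in adult luminal cells against 74.2 and 111.2 CPM in puberty, ranges that overlap through diestrus replicate 1, and was not called. *Mt1* and *Mt2* ran opposite to basal cells, at 122.6 ± 17 and 130.6 ± 19.1 CPM in adult luminal cells (SD, n = 8 each) against 388.4 and 594.9 CPM and 487.3 and 868.0 CPM in puberty.

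In adipocytes most called members were lower in adults. *Slc38a1* had 2.38 to 18.1 CPM with a median of 3.94 in adults, against 27.3 and 22.6 CPM in puberty, and fell by 2.26 (SE 0.19, edgeR adjusted p = 0.00674). *Slc39a14* had 12.5 to 59.5 CPM in adults against 76.8 and 67.7 CPM and fell by 1.35 (SE 0.18, edgeR adjusted p = 0.0144). *Slc7a5* had 29.7 to 112.0 CPM in adults against 121.4 and 83.8 CPM and fell by 1.05 (SE 0.16, edgeR adjusted p = 0.0194), although the 2 diestrus libraries, 112.0 and 87.3 CPM, lay within the pubertal range. *Slc7a1* fell by 1.02 and *Slc30a4* by 0.87, with edgeR adjusted p of 0.0238 and 0.0232. *Slc5a1* had 0.0839 to 9.09 CPM in adults against 3.97 and 8.52 CPM and fell by 3.45 (SE 0.62, edgeR adjusted p = 0.0248). *Slc7a11*, *Slc5a9*, *Slc7a2*, *Slc5a8* and *Slc30a7* fell as well, by 0.83 to 4.00. *Slc5a1*, *Slc5a8*, *Slc5a9*, *Slc7a2*, *Slc38a1* and *Slc30a4* are genes that were highest in luminal cells, and the luminal marker sum was also higher in the pubertal adipocyte libraries than in most adult ones, as given above. The fibroblast marker sum in the fat fraction was 3849 to 7786 CPM in adults against 10690 and 19690 CPM in puberty, and 4 of its 14 genes, but not *Dcn*, were lower in every adult library than in both pubertal ones. *Slc39a14* was highest in fibroblasts. The part of luminal or fibroblast RNA in these calls was not tested.

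*Slc2a4* and *Slc2a8* were the members higher in adult adipocytes. *Slc2a4* had 228.0 and 284.2 CPM in proestrus, 68.6 and 114.3 CPM in estrus, 255.2 and 132.8 CPM in metestrus and 134.6 and 57.3 CPM in diestrus, against 46.8 and 51.1 CPM in puberty. All adult libraries were above both pubertal ones, although diestrus replicate 2 only just, and the log2 fold change was 1.60 (SE 0.40, edgeR adjusted p = 0.0455). *Slc2a8* had 5.80 to 15.5 CPM in adults against 6.64 and 4.96 CPM in puberty, an overlap through diestrus replicate 2, and was higher by 0.92 (SE 0.23, edgeR adjusted p = 0.0451). Of the list of glucose handling and GLUT4 traffic, 4 of 27 genes were higher in adult adipocytes, namely *Akt2*, *Trarg1*, *Vamp2* and *Pfkm*, and 0 lower. The adipocyte marker sum was lower in puberty, as given above, and its part was not tested. The adipocyte count of 13 depended on the libraries used. It was 0 without pubertal replicate 1, 2 without proestrus replicate 1, 1 without proestrus replicate 2 or metestrus replicate 1, and 6 or 4 without estrus replicate 1 or 2. It was 22, all 13 included, without both diestrus libraries.

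In fibroblasts *Slc5a6* (the biotin and pantothenate carrier) had 11.8 to 21.5 CPM with a median of 16.7 in adults against 7.20 and 5.39 CPM in puberty, a log2 fold change of 1.26 (SE 0.19, edgeR adjusted p = 0.00540). *Slc7a5* was higher in adults by 0.71 (SE 0.20, edgeR adjusted p = 0.0336). *Slc30a4* had 35.9 to 117.0 CPM in adults against 174.2 and 218.8 CPM and fell by 1.40 (SE 0.23, edgeR adjusted p = 0.00658). *Slc7a11* had 96.9 to 360.4 CPM in adults against 387.7 and 373.6 CPM and fell by 1.34 (SE 0.28, edgeR adjusted p = 0.0125). *Slc39a10* fell by 0.94 and *Slc38a1* by 1.35, with edgeR adjusted p of 0.0157 and 0.0320. The fibroblast count of 6 was 0 without pubertal replicate 2, 2 without pubertal replicate 1 and 10 without estrus replicate 2. Marker sums moved with age in these libraries too. The fibroblast sum was 21460 to 58920 CPM in adults against 118200 and 84240 CPM in puberty, with 4 of 14 genes lower in every adult library and 1 higher. The basal sum was 6458 to 11990 CPM in adults against 19680 and 16440 CPM, with *Sparc* at 2431 to 5753 CPM against 15920 and 12570 CPM. The leukocyte sum was 150.1 to 554.1 CPM in adults against 77.3 and 126.9 CPM. Their part in the 6 calls was not tested.

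*Slc7a11*, *Slc38a1* and *Slc39a10* were thus lower in adults in both basal cells and fibroblasts. Whether an age difference differed between cell types was tested as the difference in 1 type minus the mean of the other 3, with 56 members among 15356 genes. A shift that a sequencing run gives to all cell types alike cancels in this difference. This difference was called for 10 members in luminal cells (20.3% of all genes) and 12 in basal cells (15.9%). Adipocytes had 22 such members (22.1%) and fibroblasts 2 (5.45%). Some members with groups of 0 reads got standard errors too large for any call. They included *Slc38a4* in basal cells (SE 221.7), and *Slc7a10* (SE 2734) and *Slc2a5* (SE 4690) in adipocytes. Their absence from the calls says nothing about their age differences. All 10 luminal differences were positive, 20 of the 22 adipocyte differences were negative, and the basal ones were 6 of each sign. Such a difference can also come from the other types. Within luminal cells only *Slc30a4*, *Slc2a3*, *Slc39a6* and *Slc7a6* of the 10 were called between ages. Within adipocytes *Slc2a3*, *Slc2a10*, *Slc30a9*, *Slc39a4*, *Slc39a6*, *Slc39a9*, *Slc5a5*, *Slc7a4*, *Slc7a6*, *Slc7a7* and *Slc7a8* were not called between ages, and *Slc7a3* was not tested.

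The luminal differences were led by *Slc30a4*, which was higher in adult luminal cells and lower in adults in the other types, and whose luminal difference exceeded that of the others by 1.47 (SE 0.23, edgeR adjusted p = 3.29e-04). *Slc2a3* followed at 2.71 (SE 0.52, edgeR adjusted p = 0.00153), then *Slc7a11* at 2.24 (SE 0.50, edgeR adjusted p = 0.00451) and *Slc39a6* at 0.87 (SE 0.20, edgeR adjusted p = 0.00451). *Slc7a11* had 27.5 to 81.3 CPM in adult luminal cells against 47.4 and 28.5 CPM in puberty, an overlap, while it was lower in adults in each of the other 3 types. The other luminal members were *Slc38a1*, *Slc7a6*, *Slc39a14*, *Slc39a10*, *Slc39a13* and *Slc30a1*. In basal cells *Slc7a7* stood apart by 2.26 (SE 0.38, edgeR adjusted p = 4.00e-04), *Slc39a14* by 1.32 (SE 0.29, edgeR adjusted p = 0.00365), *Slc2a10* by 1.19 (SE 0.29, edgeR adjusted p = 0.00728) and *Slc2a8* by −0.84 (SE 0.23, edgeR adjusted p = 0.0165). The other basal members were *Slc7a2*, *Slc5a8* and *Slc39a4* with positive differences and *Slc39a10*, *Slc2a3*, *Slc2a4*, *Slc39a3* and *Slc30a1* with negative ones. Within basal cells *Slc2a3*, *Slc2a4*, *Slc2a8* and *Slc39a3* were not called between ages.

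In adipocytes the 4 leading differences were *Slc7a5* at −1.81 (SE 0.21, edgeR adjusted p = 7.27e-06), *Slc39a14* at −2.27 (SE 0.27, edgeR adjusted p = 8.42e-06), *Slc5a8* at −5.01 (SE 0.69, edgeR adjusted p = 3.82e-05) and *Slc7a1* at −1.60 (SE 0.24, edgeR adjusted p = 1.17e-04). *Slc7a5* was higher in adults in the other 3 types and lower in adults in adipocytes. The other negative differences were those of *Slc7a2*, *Slc7a3*, *Slc7a4*, *Slc7a6*, *Slc7a7*, *Slc7a8*, *Slc7a11*, *Slc38a1*, *Slc39a4*, *Slc39a6*, *Slc39a9*, *Slc5a1*, *Slc5a5*, *Slc2a3*, *Slc2a10* and *Slc30a7*, and *Slc2a4* and *Slc30a9* had positive ones, of 1.41 and 0.52. In fibroblasts the members were *Slc30a4* at −0.996 (SE 0.21, edgeR adjusted p = 0.0104) and *Slc2a9* at 2.17 (SE 0.55, edgeR adjusted p = 0.0230). *Slc2a9* had 1.48 to 5.55 CPM in adult fibroblasts against 0.966 and 1.70 CPM in puberty, and was not called between ages within fibroblasts. The counts moved when a pubertal library of the type was left out: to 16 without luminal replicate 1 and 2 without luminal replicate 2, and to 1 and 4 without basal replicate 1 and 2. They moved to 11 without adipocyte replicate 1, and to 1 and 0 without fibroblast replicate 1 and 2. The basal count also fell without pubertal fibroblast replicate 2, and the fibroblast count rose without fibroblast diestrus replicate 2. The *Slc5a8* call was lost without fibroblast estrus replicate 2, at a log2 difference of −4.46, where the other estrus library held 0 reads.

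The last question was whether the transporters followed the estrous cycle. In each cell type the 8 adult libraries were compared in 10 ways, as the 6 pairs of stages and each stage over the mean of the other 3, with 2 libraries a stage. Few members were called by edgeR outside adipocytes. In luminal cells edgeR called 1 member, *Slc2a3*, while DESeq2 called 7. The *Slc2a3* values of the proestrus libraries, 7.59 and 4.97 CPM, stood above those of estrus, metestrus and diestrus, the highest of which was 2.73 CPM. Proestrus exceeded the other stages by 1.91 on the log2 scale (SE 0.24, edgeR adjusted p = 0.0176), where 0.382% of all genes were called higher. Diestrus was below proestrus by 2.57 (SE 0.34, edgeR adjusted p = 0.0363), where 0.211% of all genes were called lower. The call was lost without either proestrus or either estrus library, with adjusted p of 0.0510 to 0.303. *Slc16a3*, the lactate exporter of the glucose handling list, was the only gene of that list called between luminal stages, and it too was higher in proestrus than in the other stages. Without luminal diestrus replicate 1 or 2 the number of called members was 3 or 6.

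**Figure D4:**
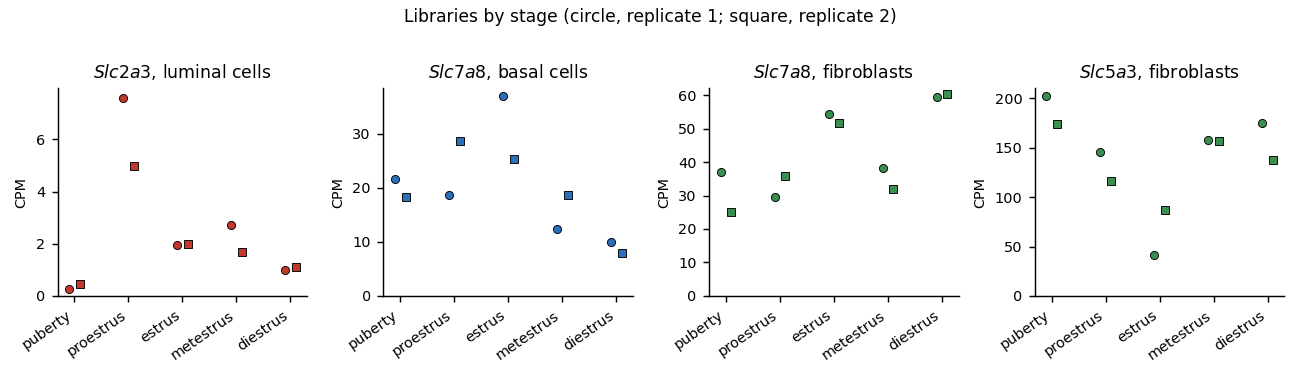
CPM (vertical axes, linear) in puberty and the 4 estrous stages, with a circle for replicate 1 and a square for replicate 2, of *Slc2a3* in luminal cells, *Slc7a8* in basal cells, and *Slc7a8* and *Slc5a3* in fibroblasts. *Slc2a3* is highest in both proestrus libraries, *Slc7a8* in basal cells is high in both estrus libraries and in proestrus replicate 2, and the fibroblast members were not called by edgeR.

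In basal cells *Slc7a8* (LAT2, a carrier of large neutral amino acids) had 18.6 and 28.6 CPM in proestrus, 36.9 and 25.3 CPM in estrus, 12.4 and 18.7 CPM in metestrus and 9.90 and 7.93 CPM in diestrus. Estrus was above the mean of the other stages by 1.08 (SE 0.22, edgeR adjusted p = 0.0475), where 1.2% of all genes were called higher, although proestrus replicate 2 lay between the estrus libraries. The call was lost without proestrus replicate 1, estrus replicate 1 or any 1 of the metestrus and diestrus libraries, with adjusted p of 0.0608 to 0.893. Without proestrus replicate 1 or estrus replicate 2 the numbers of called members were 3 and 2. In fibroblasts 0 members were called by edgeR in the 10 comparisons, as were 0.0% of all genes, in a fit with 4 residual degrees of freedom. The study itself reported fibroblast genes that differed between stages, with estrus standing out the most. At an unadjusted p under 0.05 all genes numbered 980 to 3048 of 13068 by comparison. The members numbered 1 to 14 of 46, and DESeq2 called 10 members in all. Those with the smallest p were *Slc7a8* and *Slc5a3*. *Slc7a8* had 29.7 and 35.9 CPM in proestrus, 54.3 and 51.7 CPM in estrus, 38.2 and 31.8 CPM in metestrus and 59.3 and 60.2 CPM in diestrus. The log2 fold change of diestrus over proestrus was 0.92 (SE 0.19, edgeR adjusted p = 0.395), a difference that was called in DESeq2. *Slc5a3* had 145.3 and 116.3 CPM in proestrus, 41.5 and 87.3 CPM in estrus, 157.9 and 156.8 CPM in metestrus and 175.3 and 138.0 CPM in diestrus, with both estrus libraries below the rest. The log2 fold change of estrus over the other stages was −1.29 (SE 0.28, edgeR adjusted p = 0.0810), and DESeq2 called this one as well. Without fibroblast estrus replicate 2, 4 members were called.

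In adipocytes no member was called between any pair of stages, but 12 members were called higher in diestrus than in the other stages together (7.53% of all genes were), and 0 lower (3.52% of all genes) by edgeR. At an unadjusted p under 0.05 there were 21 of 48 members in this comparison, in either direction, beside 4796 of all 13726 genes. In the study's own analysis each adipocyte pair with diestrus had many upregulated genes. Here edgeR was fitted to the 8 adult adipocyte libraries alone, with 4 residual degrees of freedom. It called 11, 0 and 0 of all genes higher in diestrus than in estrus, metestrus and proestrus. These counts therefore do not show that the study's differences are absent. A joint fit of the 32 adult libraries called more adipocyte members between stages, as given below. The 12 were *Slc7a5*, *Slc38a1*, *Slc7a1*, *Slc30a4*, *Slc5a1*, *Slc39a8*, *Slc39a14*, *Slc39a6*, *Slc5a8*, *Slc5a9*, *Slc7a2* and *Slc30a7*. *Slc7a5* had 42.5 and 44.4 CPM in proestrus, 29.7 and 33.7 CPM in estrus, 43.6 and 37.0 CPM in metestrus and 112.0 and 87.3 CPM in diestrus, a log2 fold change of 1.37 (SE 0.13, edgeR adjusted p = 0.0134). *Slc7a1* had 145.9 and 147.3 CPM in diestrus against 36.6 to 72.1 CPM in the other stages, a log2 fold change of 1.36 (SE 0.16, edgeR adjusted p = 0.0176). In both genes the diestrus libraries were clear of the rest and of about the same level as puberty. *Slc38a1* had 18.1 and 13.5 CPM in diestrus against 2.38 to 5.34 CPM in the other stages, a log2 fold change of 2.16 (SE 0.22, edgeR adjusted p = 0.0144).

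Zinc carriers were among the 12 as well. *Slc30a4* had 71.5 and 77.1 CPM in diestrus against 34.5 to 50.5 CPM in the other stages, a log2 fold change of 0.75 (SE 0.09, edgeR adjusted p = 0.0187). *Slc39a8* had 21.3 and 18.4 CPM in diestrus against 9.31 to 12.3 CPM, a log2 fold change of 0.81 (SE 0.14, edgeR adjusted p = 0.0280). *Slc39a14*, *Slc39a6* and *Slc30a7* were higher by 1.24, 0.91 and 0.78. *Slc5a1*, *Slc5a8*, *Slc5a9*, *Slc7a2*, *Slc38a1* and *Slc30a4* were highest in luminal cells among the adult cell types, and *Slc39a8* was lowest there. *Slc5a1* had 1.88 and 9.09 CPM in diestrus against 0.0839 to 0.509 CPM, a log2 fold change of 4.38 (SE 0.69, edgeR adjusted p = 0.0259). *Slc5a8*, *Slc5a9* and *Slc7a2* were higher by 5.50, 3.76 and 2.99. *Slc5a1* and *Slc5a9* exceeded 1 CPM in adult adipocytes only in the diestrus libraries. They passed the filter for testing through the stage where they were high, which favoured their calls.

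**Figure D5:**
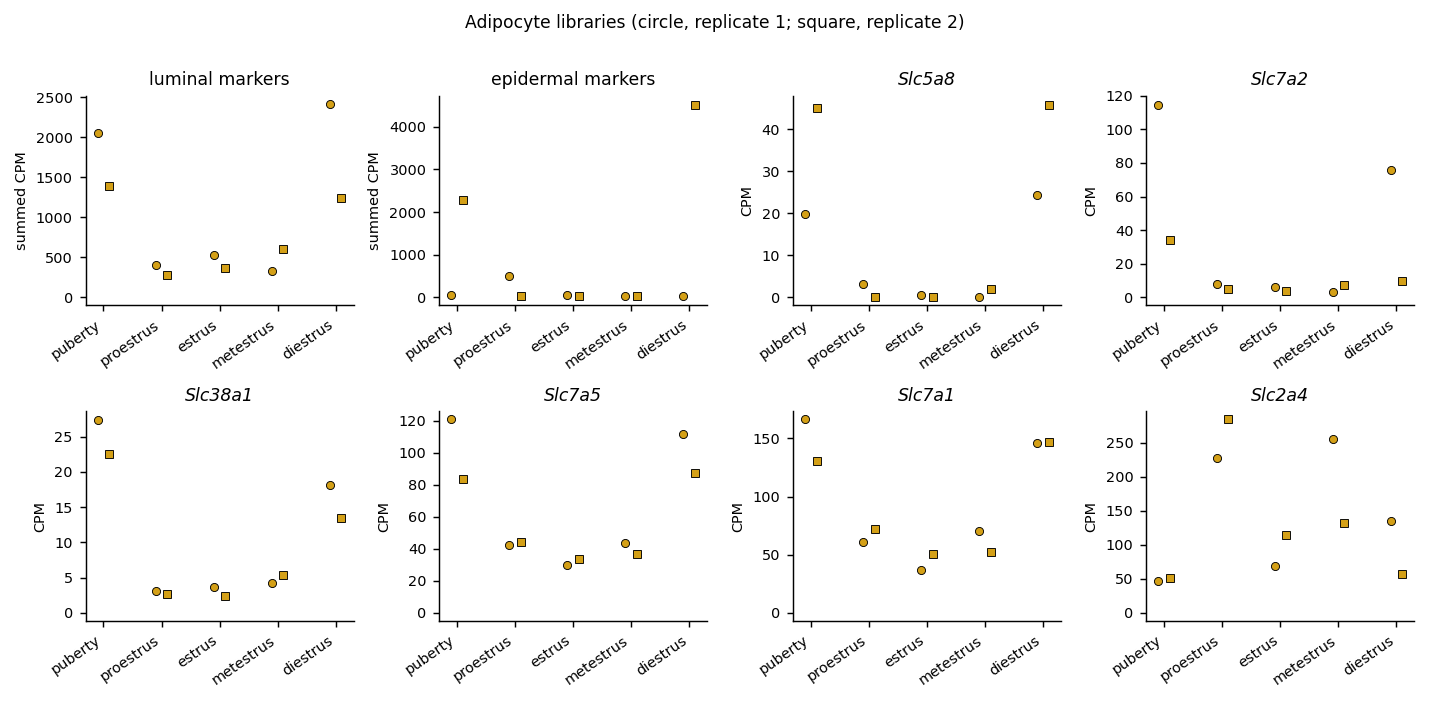
Adipocyte libraries by stage, with a circle for replicate 1 and a square for replicate 2. The vertical axes give the summed CPM of the luminal and the epidermal markers and the CPM of *Slc5a8*, *Slc7a2*, *Slc38a1*, *Slc7a5*, *Slc7a1* and *Slc2a4*. Both diestrus and both pubertal libraries are high in the luminal sum and in *Slc5a8*, *Slc38a1*, *Slc7a5* and *Slc7a1*, replicate 2 of each is high in the epidermal sum, and *Slc2a4* is lowest in the 2 pubertal libraries.

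The 2 diestrus libraries were also those with the highest adult luminal marker sums, 2416 and 1236 CPM, and replicate 2 had the epidermal sum of 4511 CPM. The order of the replicates was not the same for all members. *Slc7a2* had 75.9 CPM in replicate 1 and 9.72 CPM in replicate 2, *Slc5a9* had 2.62 and 1.25 CPM, and *Slc5a1* and *Slc5a8* had 1.88 and 24.3 CPM in replicate 1 but 9.09 and 45.7 CPM in replicate 2. Outside the 6 families, 7 of the 22 genes of the *Atf4* and antioxidant list were called higher in diestrus adipocytes and 1 lower, and 4 of 15 heavy chains and other amino acid carriers were higher, *Slc3a2* among them. The part of other cells' RNA was not tested. The count of 12 depended on the libraries used: 0 members were called without proestrus replicate 2, either estrus library or either metestrus library, and 7 without proestrus replicate 1, in fits with 1 library in the thinned stage. Log2 fold changes of the 6 named members stayed between 0.745 and 5.02 in the fits that lost the call.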

How the data were processed

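RNA of luminal cells, basal cells, adipocytes and fibroblasts was measured in 2 libraries for each of 5 ages or stages, 40 in all, from pools of mice. The deposited tables hold raw read counts per gene that the authors made; the submitters' notes name TopHat2 2.1, Bowtie 1.1.0, HTSeq and GRCm38 (mm10), while the strand setting of the counting is not given in the sources used here. Symbols, exon lengths and coordinates came from GENCODE M21 (24739 of 25044 adult and 23989 of 24268 pubertal IDs matched), and promoters from RefSeq (GRCm38.p6).

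Counts were tested in R 4.3.3 with edgeR 4.0.16 (quasi-likelihood, TMM scaling, Benjamini-Hochberg adjustment) with limma 3.58.1, for genes over 1 CPM in at least 2 libraries. Cell types were fitted within each age, and stages and ages within each cell type. Age was tested as adults over puberty, which changes only the sign of the comparison as planned. CPM (counts relative to library sizes that TMM scaled over all 40 libraries) and RPKM (CPM per kilobase of exon) were computed from the counts in Python 3.11.15 (pandas 2.3.3, numpy 2.4.6). Total counts were 8991222 to 22760563 per library with 2 libraries a group, and p-values measure the spread between pools. The fits were tested on simulated data. Alternatives were DESeq2 1.42.0, RLE scaling, the newer quasi-likelihood method, no filter, joint fits, a replicate block and leaving out libraries.

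The members and the gene lists were chosen with earlier results of these data known. Every member is named. Given in full were, in each cell type, the 4 members of highest RPKM, the 4 highest by the largest fold change, the 6 called members of smallest p for age and for stages (2 where none was called), and the 4 for the difference between types.

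Adult libraries of the same stage and number came from the same pool of mice in all 4 cell types. Deviations from the group means correlated between them at −0.02 to 0.25 over 24 pairs, 20 of them above 0, and at 0.06 to 0.23 in the 6 pubertal pairs. In puberty the adipocytes of replicate 2 came from another pool than the other 3 cell types, so the 3 pairs with adipocytes share a pool in replicate 1 alone.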

Additional observations from a re-analysis of the deposited data

Results flagged for a closer look

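Of 29 groups of adult libraries examined, 3 had a library far from the rest, where chance flags about 1 in 20 groups of values drawn alike. Each group held libraries of 4 stages, so that rate need not hold here. *Slc7a4* had 25.6 CPM in luminal proestrus replicate 1, against 12.4 to 18.6 CPM in the other luminal libraries. *Slc38a5* had 7.52 CPM in basal estrus replicate 1, against 1.03 to 2.64 CPM. *Slc2a1* had 245.6 CPM in adipocyte diestrus replicate 2, against 80.8 to 139.0 CPM, and this library had also the highest epidermal marker sum, whose part was not tested.

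The difference between adults and puberty differed between cell types by the test of that difference itself for the members in each type with the smallest p, 14 results in all among those called. In luminal cells minus the mean of the other types it was 1.47 for *Slc30a4*, 2.71 for *Slc2a3*, 2.24 for *Slc7a11* and 0.87 for *Slc39a6* on the log2 scale. In basal cells it was 2.26 for *Slc7a7*, 1.32 for *Slc39a14*, 1.19 for *Slc2a10* and −0.84 for *Slc2a8*. In adipocytes it was −1.81 for *Slc7a5*, −2.27 for *Slc39a14*, −5.01 for *Slc5a8* and −1.60 for *Slc7a1*, and in fibroblasts −0.996 for *Slc30a4* and 2.17 for *Slc2a9*.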

How the results depend on the processing

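Of 64 named results, 62 with a call, all 64 kept their direction and side of the threshold with RLE scaling and with the newer quasi-likelihood method, and 62 did with DESeq2 and with no filter, where the other 2 gained a call. RLE moved the median of all genes by up to 0.13 on the log2 scale against TMM. No result changed direction under any alternative run. DESeq2 called 7, 3, 22 and 10 members between stages in luminal cells, basal cells, adipocytes and fibroblasts, against 1, 1, 12 and 0 in edgeR, and 4 against 2 for the age difference in fibroblasts against the other types. With no filter 18, 11 and 12 members were called between stages in luminal cells, basal cells and fibroblasts, 13 between ages in luminal cells and 11 in fibroblasts, and in puberty 1 was lowest in basal cells and 0 in adipocytes. Joint fits called 2, 26 and 7 members between stages in basal cells, adipocytes and fibroblasts and 23 between ages in adipocytes. In the joint fit of all 40 libraries *Slc7a4* and *Slc30a4* lost their age call in luminal cells. Without both diestrus adipocyte libraries 22 members were called between ages in adipocytes and 1 was lowest in fibroblasts. The cause was not tested.

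With the replicate block, stage calls in basal cells and adipocytes were 0 and 0, the age counts were 5, 23, 9 and 7, and the adult cell type counts were the same. Replicate numbers do not pair stages (r −0.67 to 0.38, 10 of 24 above 0), so the block removes degrees of freedom there. With the block 8 named results lost their call: *Slc30a4* between ages in luminal cells, *Slc7a8* in basal estrus and the 6 named for adipocyte diestrus.

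Leaving out 1 library gave 11 to 13, 8 to 11, 4 to 5 and 13 to 13 members highest in adult luminal cells, basal cells, adipocytes and fibroblasts, and 8 to 10, 9 to 11, 15 to 18 and 1 to 3 lowest. In puberty these ranges were 6 to 7, 1 to 5, 0 to 3 and 2 to 5 highest and 8 to 10, 0 to 2, 0 to 4 and 0 to 3 lowest. Between stages they were 0 to 6, 0 to 3, 0 to 16 and 0 to 4, between ages 2 to 18, 13 to 25, 0 to 18 and 0 to 10, and for the difference between types 2 to 16, 1 to 14, 11 to 26 and 0 to 4. Single named results lost their call in 118 such fits.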
